A study of Mus musculus with 12 samples.

Results

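A set of acute phase genes was followed through the livers of mice given VPA alone or VPA with OCA: the orosomucoid genes Orm1, Orm2 and Orm3, the serum amyloid A genes Saa1, Saa2, Saa3 and Saa4, and Hp, Lcn2 and Lbp. They were chosen by gene symbol, with earlier results of these data known, and are 10 of the 34986 genes in the authors' table. All 10 passed the filter on low values, which kept 19006 genes. The samples were 12 livers of female C57BL/6 mice aged 16 weeks, 6 labelled VPA and 6 labelled VPA_OCA, from a stated 6 mice per treatment. The series concerns the farnesoid X receptor (FXR), a nuclear receptor for bile acids, in liver injury by valproic acid (VPA). The labels do not spell out OCA, letters that commonly stand for obeticholic acid, an FXR agonist, and give no dose, route or length of treatment. Both groups received VPA and no untreated livers were analysed here, so every difference below is that of VPA_OCA from VPA, not from a healthy liver.

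The acute phase response is the change in the liver's secreted proteins that follows infection or tissue injury. Cytokines of the interleukin 6 type act through STAT3, cytokines of the interleukin 1 type act through NF-kB and C/EBP factors, and glucocorticoids add to both, so that hepatocytes raise orosomucoid, serum amyloid A, haptoglobin and other plasma proteins. The orosomucoids are lipocalins that bind drugs and other small molecules in plasma, Saa1 and Saa2 are carried on high-density lipoprotein, Hp binds free haemoglobin, Lcn2 binds bacterial siderophores and Lbp binds lipopolysaccharide.

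Of the 10 genes, only Orm3 differed between the groups by the threshold of adjusted p under 0.05 (limma, Benjamini-Hochberg over all 19006 genes). It was 3.70-fold higher in VPA_OCA livers. The other 9 did not pass. Across all genes tested 137 passed, 84 higher and 53 lower in VPA_OCA, which is 0.721% of them. Orm3 was also the only one of the 10 whose 6 VPA and 6 VPA_OCA values did not overlap, against 1.44% of all genes. By the sign of the log2 fold change 7 of the 10 were higher and 3 lower in VPA_OCA, with a median log2 fold change of 0.23 against -0.001 over all genes tested. Over all genes tested 50.1% were negative. Without VPA_OCA replicate 6, Orm2 and Lcn2 turned negative as well (-0.02 and -0.11). Since the RNA is from whole liver, fewer cells of a type and less RNA per cell cannot be told apart.

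The libraries were alike in total, from 20236900 to 22087711 normalized counts, and 1 normalized count was worth close to 1 read in most of them, so a level near 50 rests on about as many reads. The library of VPA_OCA replicate 1 was the deepest, with an estimated 37746632 reads against 17879222 to 22021646 in the other 11. Within each group the livers numbered 1 to 3 and those numbered 4 to 6 separated on the first principal component, which held 47.6% of the variance after group means were removed. The mitochondrial share of normalized counts was 9.09% to 11.7% in numbers 1 to 3 and 5.84% to 7.51% in numbers 4 to 6. The labels name no batch, and each set of numbers held 3 livers of each group, so values within each set are given beside the values over all 12. The liver VPA_OCA replicate 6 stood apart in this gene group: it had the highest value of the 12 for Saa1, Saa2, Saa3, Lcn2 and Orm2, 5 of the 10, while 9.52% of all genes tested were highest there. Hepatocyte markers were abundant in every liver, with Alb, the gene of serum albumin, at a mean of 2166170 normalized counts in VPA and 2045330 in VPA_OCA. VPA replicates 4 and 5 held muscle transcripts, with skeletal muscle markers summing to 470 and 119 normalized counts against 23.9 or less elsewhere. Neutrophil markers were low: the summed level of the 11 listed, 8 of which passed the filter, was 42.7 to 96.7 normalized counts in VPA and 22.3 to 54.6 in VPA_OCA.

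**Figure D1:**
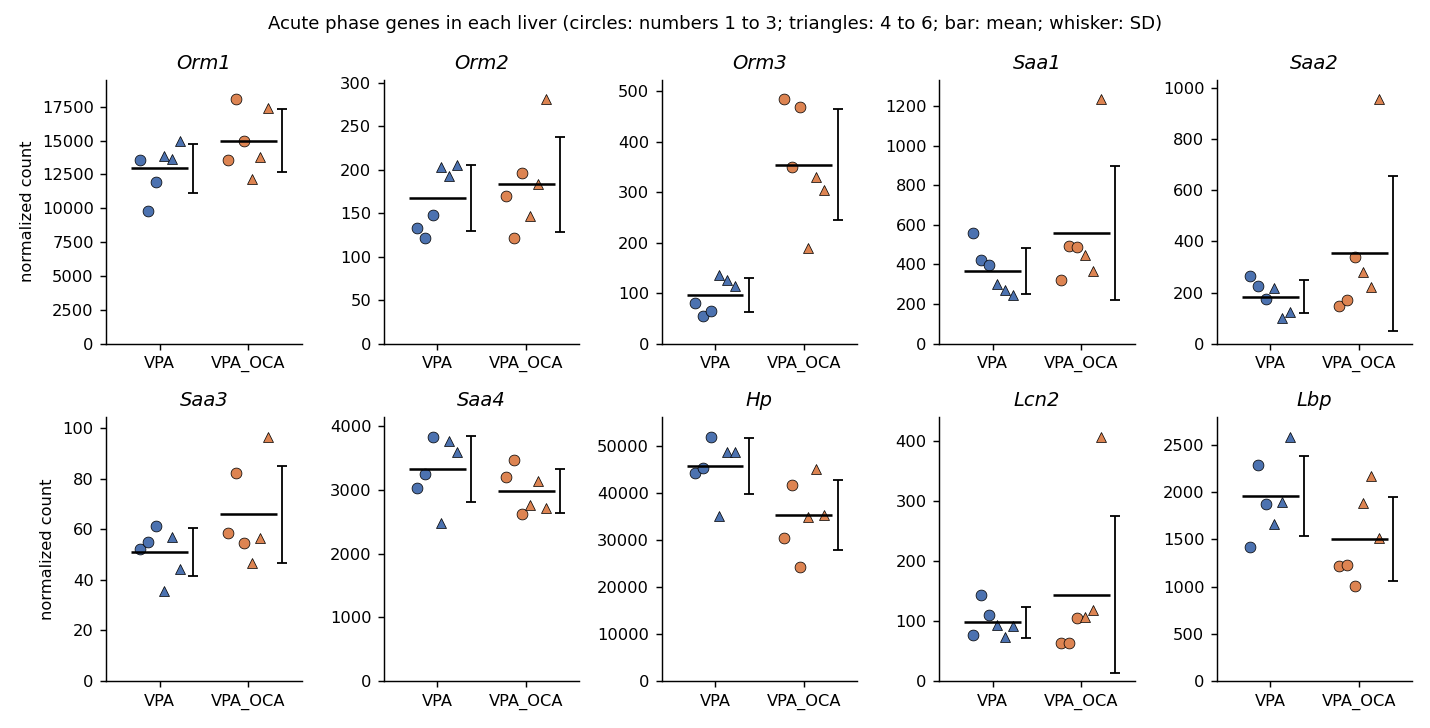
Normalized count (vertical axis, from 0, a separate scale for each gene) of the 10 acute phase genes in each of 6 VPA and 6 VPA_OCA livers. Circles are replicate numbers 1 to 3, triangles 4 to 6, bars the group means and whiskers 1 SD; Orm3 is the one gene whose groups do not overlap, with VPA between 54.0 and 135 and VPA_OCA between 188 and 484.

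The 3 orosomucoid genes lie side by side on the forward strand of chromosome 4 (GRCm38 positions as the authors' table gives them). Orm1 (ENSMUSG00000039196) spans chr4:63344560-63348163, Orm3 (ENSMUSG00000028359) spans chr4:63356162-63359511 and Orm2 (ENSMUSG00000061540) spans chr4:63362449-63365878. They are close copies, and the first 72 coding bases of each, from GENCODE M21 on GRCm38, show where they part. Capitals mark the 14 positions at which the 3 are not all alike.
Orm1, chr4:63344598-63344669, forward strand: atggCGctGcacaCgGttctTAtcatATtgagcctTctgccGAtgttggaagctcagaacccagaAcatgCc
Orm2, chr4:63362487-63362558, forward strand: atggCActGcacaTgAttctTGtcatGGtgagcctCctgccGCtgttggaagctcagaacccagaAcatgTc
Orm3, chr4:63356200-63356271, forward strand: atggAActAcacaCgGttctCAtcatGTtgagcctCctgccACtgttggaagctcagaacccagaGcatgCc
At 5 of these positions Orm3 alone differed, at 4 Orm1 alone and at 5 Orm2 alone. Over the whole coding sequence, Orm3 was identical to Orm1 at 86.0% and to Orm2 at 87.9% of aligned positions, and Orm1 to Orm2 at 89.9%. Of the 724 runs of 50 bases in the Orm3 transcript, 3.59% occurred in Orm1 or Orm2, so most of it could be told from its copies by a read of that length. For Orm1 that share was 20.4% and for Orm2 21.8%. How the authors counted reads that match more than 1 copy is not given in the sources used here, so the split between the copies is uncertain, most of all for the low copies beside the abundant Orm1. Of the 50-base runs of Orm1, 2.20% occurred in Orm3, a share that at the mean level of Orm1 corresponds to 286 normalized counts in VPA and 331 in VPA_OCA, against 95.9 and 354 measured for Orm3. For Orm2 the share of 20.4% corresponds to 2642 and 3057, against 167 and 183 measured. The part of reads from Orm1 in the Orm2 and Orm3 values was not tested.

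Orm3 encodes the third mouse orosomucoid. In the VPA livers it measured 80.2, 54.0, 65.2, 135, 127 and 114 normalized counts in replicates 1 to 6. In the VPA_OCA livers it measured 484, 350, 468, 188, 330 and 305. Every VPA_OCA liver was above every VPA liver, and the lowest, replicate 4, was the nearest to the VPA range. The mean rose from 95.9 ± 34.0 to 354 ± 110 normalized counts (SD, n = 6 each), a log2 fold change of 1.89 with a standard error of 0.26 (adjusted p = 0.00175, limma). In an exact two-sided permutation test p was 0.0022, the smallest that 6 against 6 can give. Any gene whose groups do not overlap gets this value, as 1.44% of all genes would. It has no correction for the other genes and adds nothing to the lack of overlap. With the replicate number as a block, a fit that called 1.1% of all genes, its adjusted p was 0.0064. Without VPA replicates 4 and 5, the livers with muscle transcripts, the log2 fold change was 2.15. The authors' deposited table gives a log2 ratio of 1.78 and an adjusted p of 4.22e-07 for Orm3, and, for the other 9, log2 ratios from -0.42 (Lbp) to 0.81 (Saa2), each with an adjusted p above 0.05. Lbp and Hp came nearest to that threshold there, with the authors' adjusted p at 0.0558 and 0.0853.

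The size of the Orm3 difference was not the same in the 2 sets of replicate numbers. In numbers 1 to 3 the mean was 66.5 ± 13.2 in VPA and 434 ± 72.9 in VPA_OCA (n = 3 each), 6.46-fold higher (log2 fold change 2.69, adjusted p = 0.000101, limma), in a fit that called 0.637% of all genes. In numbers 4 to 6 it was 125 ± 10.8 and 274 ± 75.5 (n = 3 each), 2.12-fold higher (log2 fold change 1.09, adjusted p = 0.0657, limma), in a fit that called 0.5%. The VPA livers numbered 4 to 6 were thus the higher ones of their group, and the VPA_OCA livers numbered 4 to 6 the lower ones of theirs. The test of the difference between the sets, added after the data were seen, gave -1.61 ± 0.29 (log2, standard error) and did not pass over all genes (adjusted p = 0.127, limma). With a term for the set, which called 2.13% of all genes, Orm3 kept its call with an adjusted p of 0.000678.

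Orm1 encodes the most abundant orosomucoid, and its level was high in all 12 livers. It ranged from 9812 through a median of 13605 to 14950 normalized counts in VPA, and from 12130 through 14375 to 18060 in VPA_OCA. The groups overlapped, although 3 VPA_OCA livers lay above the highest VPA liver. The mean was 12962 ± 1824 in VPA and 14997 ± 2326 in VPA_OCA, a log2 fold change of 0.21 ± 0.13 (standard error, adjusted p = 0.688, limma). In numbers 1 to 3 the log2 fold change of Orm1 was 0.40, and in numbers 4 to 6 it was 0.01.

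Orm2 lies 2937 bases downstream of Orm3 and measured 122 to 206 normalized counts in VPA, with a median of 171, and 121 to 281 in VPA_OCA, with a median of 177. The groups overlapped almost wholly, and the one value outside the VPA range on the high side was that of VPA_OCA replicate 6. Its log2 fold change was 0.11 ± 0.19 (standard error, adjusted p = 0.926, limma) and turned to -0.02 without that liver. So the gene to either side of Orm3 did not pass where Orm3 did; the difference between the copies' responses was not tested in a model. The next genes outward, Col27a1 before Orm1 and Akna after Orm2, did not pass either (adjusted p = 0.820 and 0.839, limma).

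Levels of different genes were compared per length, as the authors' FPKM. The authors' lengths for Saa1, Saa2 and Saa3 were 1528, 1053 and 1083 bases. The GENCODE M21 transcripts compared here have 609, 652 and 555 bases. For Orm1, Orm2, Orm3 and Saa4 the 2 lengths were the same. Orm3 was below Orm2 in all 6 VPA livers, at 0.442 to 0.668 times its FPKM, and above Orm2 in all 6 VPA_OCA livers, at 1.09 to 2.90 times. As a share of the summed FPKM of the 3 genes, Orm3 went from 0.713% ± 0.187 in VPA to 2.30% ± 0.754 in VPA_OCA (SD, n = 6 each). Orm1 held 98.0% ± 0.334 of that sum in VPA and 96.5% ± 0.821 in VPA_OCA. The sum of the 3 genes in normalized counts was 13225 ± 1881 in VPA and 15534 ± 2360 in VPA_OCA, with overlapping ranges. This sum does not depend on how reads were divided among the copies. It would change if shared reads were dropped or counted more than once. Orm1 made up nearly all of the family's transcripts in both groups, and the 3.70-fold difference of Orm3 concerned a small part of them.

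**Figure D2:**
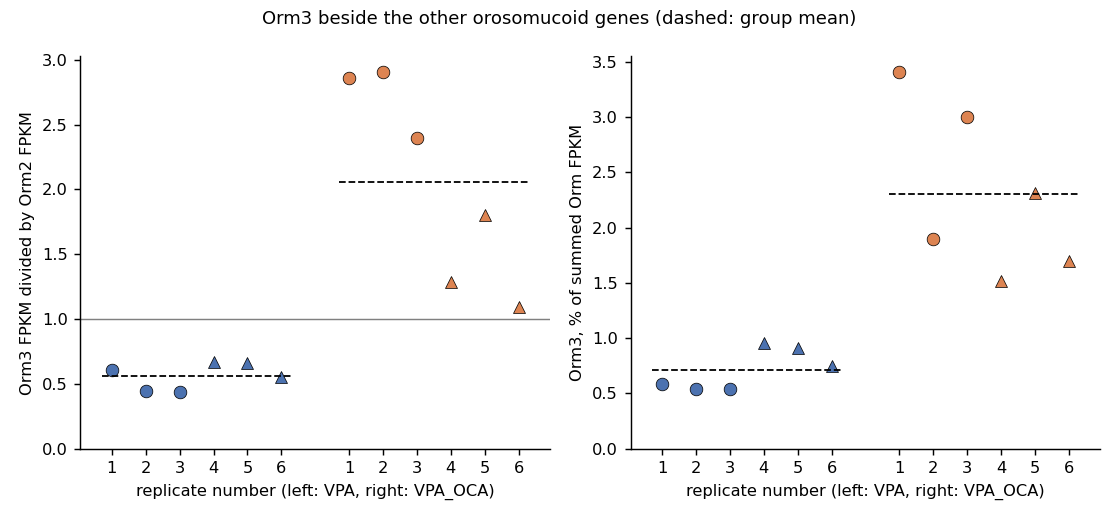
Orm3 FPKM divided by Orm2 FPKM (left panel) and Orm3 as a percentage of the summed FPKM of Orm1, Orm2 and Orm3 (right panel) in each liver, by replicate number. Circles are numbers 1 to 3, triangles 4 to 6, dashed lines the group means, and the grey line marks equal FPKM; the 6 VPA livers lie between 0.442 and 0.668 in the left panel and the 6 VPA_OCA livers between 1.09 and 2.90.

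Because Orm3 moved and its neighbour Orm2 did not pass, the 200 bases before the RefSeq start site of each are shown (GRCm38.p6, forward strand). Capitals mark matches to the letters TTGCNNAA, a form of the C/EBP motif, and to TATAAA, the TATA box.
Orm3, chr4:63355958-63356157: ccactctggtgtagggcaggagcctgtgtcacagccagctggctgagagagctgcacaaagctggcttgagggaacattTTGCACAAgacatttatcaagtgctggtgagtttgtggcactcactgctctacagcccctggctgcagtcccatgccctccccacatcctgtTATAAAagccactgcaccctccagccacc
Orm2, chr4:63362249-63362448: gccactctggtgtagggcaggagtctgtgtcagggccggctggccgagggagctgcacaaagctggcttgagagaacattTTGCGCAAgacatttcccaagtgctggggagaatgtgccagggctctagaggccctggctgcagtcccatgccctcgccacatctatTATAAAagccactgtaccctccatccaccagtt
Both hold a C/EBP match, starting 121 bases before the start in Orm3 and 120 bases before it in Orm2, and both hold TATAAA, at 29 and 33 bases before it. These stretches were identical at 84.4% of aligned positions. RefSeq windows of 300 bases, from 250 before to 50 after the start, were at hand for 7 of the 10 genes: Orm2, Orm3, Saa1, Saa2, Saa3, Saa4 and Lcn2. Each motif was searched on both strands. The C/EBP letters were in 7 of these 7 windows and in 10.8% of all 32851 windows in the table. The 7 are not independent, since Orm2 and Orm3 are close copies upstream, as are Saa1 and Saa2 (97.0% of aligned positions identical). The letters ACANNNTGT, a loose form of the glucocorticoid receptor motif, were in 2 of the 7, those of Orm3 (38 bases before the start, directly before its TATAAA) and Lcn2 (152 bases before it), and in 6.85% of all windows. The letters TCANTGA, the core of the inverted repeat that FXR binds, were in 0 of the 7 and in 7.14% of all windows. The STAT letters TTCNNNGAA were in 0 of the 7 and in 8.30% of all, and a loose form of the NF-kB motif, GGG and CC with 5 bases between, was in 4 of the 7 and in 50.8% of all. A match describes the letters in this window and says nothing of binding in these livers.

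Saa1 and Saa2, the acute phase forms of serum amyloid A, were not called in either direction. Saa1 (ENSMUSG00000074115) lies on the reverse strand at chr7:46740497-46742980 and Saa2 (ENSMUSG00000057465) on the forward strand at chr7:46751790-46754313, head to head and 8809 bases apart. Their coding sequences were identical at 95.1% of positions. Their upstream sequence is as alike, and the bases from 200 to 51 before each RefSeq start (GRCm38.p6, each 5′ to 3′ on its gene's strand) are shown with the bases that differ or have no partner in capitals.
Saa1, chr7:46743031-46743180, reverse strand: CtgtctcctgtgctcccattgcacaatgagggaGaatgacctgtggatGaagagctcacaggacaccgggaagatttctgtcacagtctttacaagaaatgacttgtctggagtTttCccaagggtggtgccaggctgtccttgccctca
Saa2, chr7:46751633-46751782, forward strand: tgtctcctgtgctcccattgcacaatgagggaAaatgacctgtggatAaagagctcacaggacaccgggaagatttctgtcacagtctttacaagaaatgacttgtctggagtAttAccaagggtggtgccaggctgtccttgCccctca
Over the full 200 bases, 97.0% of aligned positions were identical, and both hold the C/EBP letters TTGCACAA, starting 182 and 183 bases before the start. Of the 50-base runs of the Saa1 transcript 9.11% occurred in Saa2, and 8.46% of those of Saa2 occurred in Saa1, so their split is uncertain too.

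Saa1 ranged from 244.5 through a median of 349 to 558.5 normalized counts in VPA, and from 321 through 467 to 1235 in VPA_OCA. Its log2 fold change was 0.51 ± 0.28 (standard error, adjusted p = 0.626, limma). Saa2 ranged from 98.3 through 197 to 264 in VPA and from 147 through 252 to 957 in VPA_OCA, with a log2 fold change of 0.70 ± 0.38 (adjusted p = 0.614, limma). For both genes the groups overlapped and the highest value was VPA_OCA replicate 6, where the next VPA_OCA liver measured 494 for Saa1 and 339 for Saa2. Without that liver the log2 fold changes were 0.25 for Saa1 and 0.35 for Saa2, and neither passed. By FPKM, Saa2 stood at 0.523 to 1.05 times Saa1 in the VPA livers and at 0.500 to 1.12 times in the VPA_OCA livers. These ratios rest on the authors' lengths and would be lower with the transcript lengths. The summed level of both genes was 551 ± 173 normalized counts in VPA and 912 ± 639 in VPA_OCA, and 2192 in replicate 6 alone. In numbers 1 to 3 the log2 fold change was -0.09 for Saa1 and -0.10 for Saa2. In numbers 4 to 6, which include that liver, it was 1.11 and 1.49; neither set passed, and neither did the difference between the sets (adjusted p = 0.537 and 0.544, limma).

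Lcn2 (ENSMUSG00000026822, chr2:32384633-32388252, reverse strand), the siderophore-binding lipocalin, was also highest in VPA_OCA replicate 6. It measured 72.7 to 143 normalized counts in VPA, with a median of 92.2, and 62.4 to 407 in VPA_OCA, with a median of 106. The other 5 VPA_OCA livers were at 118 or less, inside or below the VPA range. The log2 fold change was 0.25 ± 0.36 (standard error, adjusted p = 0.898, limma) and -0.11 without replicate 6. It was -0.50 in numbers 1 to 3 and 1.01 in numbers 4 to 6. Across the 12 livers, after group means were removed, Saa2 was the gene most like Saa1 of 10718 compared (Pearson r = 0.885) and was the third most like Lcn2 (r = 0.854). Without VPA_OCA replicate 6 these values were 0.710 and 0.580, so they rest in part on that liver. In that liver the neutrophil markers summed to 48.0 normalized counts, within the range of the other livers, and S100a8 and S100a9, the most abundant granulocyte transcripts on that list, were at 12.5 and 25.9. Of the 8 stellate cell and fibroblast markers 5 were highest there, with their sum at 5148 normalized counts against 3427 to 5409 in the VPA livers and 3242 to 4785 in the other 5 VPA_OCA livers. The part of either marker list in the Saa and Lcn2 values was not tested.

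**Figure D3:**
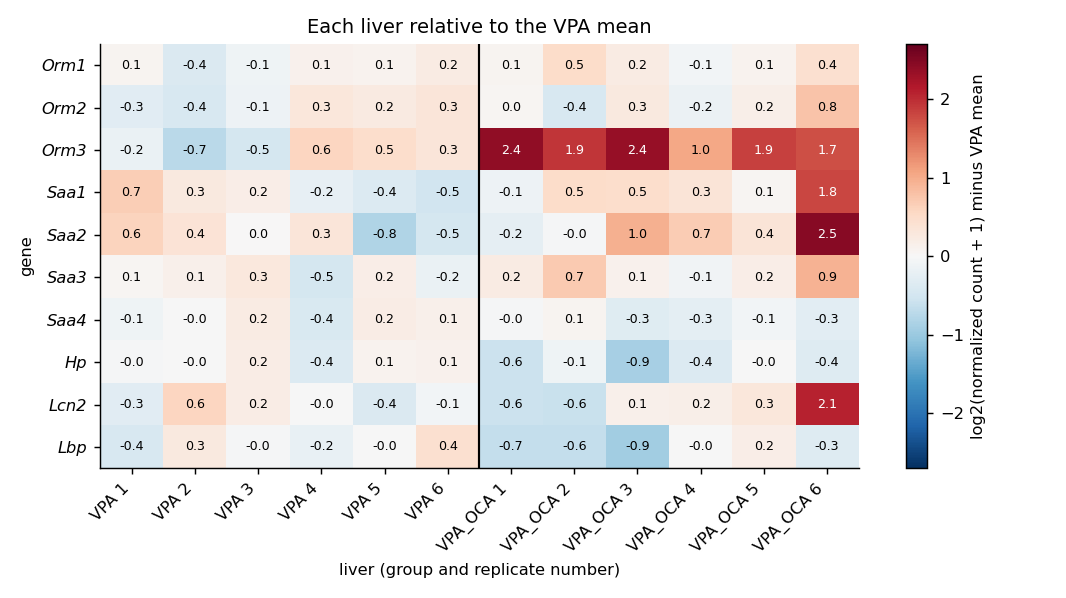
Each cell gives log2(normalized count + 1) of a gene (row) in a liver (column) minus the gene's mean over the 6 VPA livers, red above and blue below it. Orm3 is above the VPA mean in all 6 VPA_OCA livers, while Saa1, Saa2 and Lcn2 stand out in VPA_OCA replicate 6, at 1235, 957 and 407 normalized counts.

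Saa3 (ENSMUSG00000040026, chr7:46711998-46715700, reverse strand), a form made by macrophages and adipocytes as well as liver, was the lowest of the 10 by the authors' FPKM (median). It measured 35.5 to 61.3 normalized counts in VPA, with a median of 53.6, and 46.8 to 96.6 in VPA_OCA, with a median of 57.5. Replicates 2 and 6 of VPA_OCA lay above the VPA range and the other 4 within it. Its log2 fold change was 0.34 ± 0.20 (standard error, adjusted p = 0.651, limma).

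Saa4 (ENSMUSG00000040017, chr7:46727998-46732603, reverse strand) encodes the constitutive form, which is made without an inflammatory stimulus. It measured 2483 to 3838 normalized counts in VPA, with a median of 3423, and 2615 to 3477 in VPA_OCA, with a median of 2950. The groups overlapped and the log2 fold change was -0.15 ± 0.12 (standard error, adjusted p = 0.770, limma). By FPKM, Saa4 held 77.3% ± 6.50 of the summed level of the 4 Saa genes in VPA and 67.2% ± 13.5 in VPA_OCA, with its lowest share, 41.7%, in VPA_OCA replicate 6. By these FPKM, Saa4 held the largest share of that sum in all 12 livers. With the shorter transcript lengths of Saa1, Saa2 and Saa3 its share would be smaller. In VPA_OCA replicate 6 Saa1 measured 1235 normalized counts and Saa4 2710, over transcripts of 609 and 2094 bases. By these lengths Saa1 would rank above Saa4 in that liver. The rank of Saa4 in the other livers was not computed. The genes flanking the cluster, Saal1 before Saa3 and Hps5 after Saa2, did not pass (adjusted p = 0.971 and 0.518, limma).

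Hp and Lbp had the most negative log2 fold changes of the 10, and neither passed over all genes. Hp (ENSMUSG00000031722, chr8:109575128-109579172, reverse strand), which encodes haptoglobin, measured 35050 to 52070 normalized counts in VPA, with a median of 47110, and 24320 to 45200 in VPA_OCA, with a median of 35220. All 6 VPA_OCA livers lay below the VPA median and 3 lay below the lowest VPA liver. Hp was lower in VPA_OCA in 6 of 6 same-numbered pairs, a pairing that the labels do not state. The share of all genes with 6 of 6 was not counted. The mean was 45757 ± 5928 in VPA and 35350 ± 7544 in VPA_OCA, a log2 fold change of -0.39 ± 0.16 (standard error, adjusted p = 0.442, limma). The exact two-sided permutation test of Hp by itself gave p = 0.028, a value with no correction for the other genes. With the replicate block the adjusted p was 0.325 (limma). In numbers 1 to 3 the log2 fold change was -0.59 and in numbers 4 to 6 it was -0.19.

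Lbp (ENSMUSG00000016024, chr2:158306493-158332852, forward strand), which hands lipopolysaccharide to CD14, measured 1420 to 2588 normalized counts in VPA, with a median of 1887, and 1003 to 2170 in VPA_OCA, with a median of 1371. Replicates 1, 2 and 3 of VPA_OCA lay below the lowest VPA liver, and replicates 4, 5 and 6 lay inside the VPA range. Its log2 fold change was -0.40 ± 0.18 (standard error, adjusted p = 0.510, limma; exact permutation p = 0.091). Within numbers 1 to 3 it was -0.67 (adjusted p = 0.128, limma) and within numbers 4 to 6 it was -0.13 (adjusted p = 0.839, limma). The 3 lowest Lbp values and the 3 highest Orm3 values of the 12 were those of the same livers, VPA_OCA replicates 1, 2 and 3. Of the genes next to Hp, Lcn2 and Lbp, namely Txnl4b, Dhodh, 1110008P14Rik, Ptges2 and Snhg17, none passed, and Bpi, before Lbp, was at 0 in all 12 livers.

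**Figure D4:**
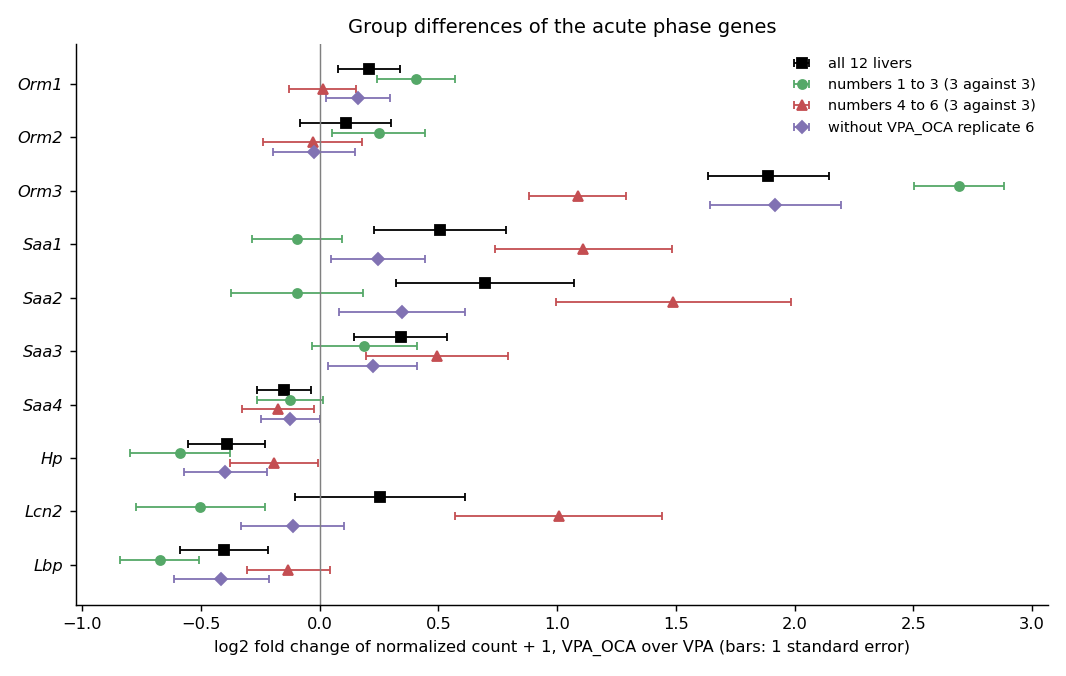
Log2 fold change of VPA_OCA over VPA with its standard error (horizontal axis) for each of the 10 genes, over all 12 livers, within replicate numbers 1 to 3, within 4 to 6, and without VPA_OCA replicate 6. Orm3 lies at 1.89, 2.69, 1.09 and 1.92 in these fits, whereas Lcn2 moves from 0.25 to -0.50, 1.01 and -0.11.

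Ordered by the median FPKM over 12 livers, the genes ran from Hp at 2025 and Orm1 at 831 through Saa4 at 71.3, Lbp at 54.2, Saa1 at 12.6, Orm2 at 10.7, Saa2 at 9.92, Orm3 at 9.80 and Lcn2 at 5.06 to Saa3 at 2.46. Hp stood above Orm1, Orm1 above Saa4, Saa4 above Lbp and Lbp above Saa1 in all 12 livers. The middle of the order was not separated beyond its spread: Saa1 exceeded Orm2 in 8 of 12 livers, Orm2 exceeded Saa2 in 6 and Saa2 exceeded Orm3 in 6. Orm3 exceeded Lcn2 in 9 and Lcn2 exceeded Saa3 in 11. The places of Saa1, Saa2 and Saa3 rest on the authors' lengths and could be higher with the transcript lengths. With the transcript length of 609 bases Saa1 would stand above Lbp in VPA_OCA replicate 6 (1235 normalized counts, against 1512 over 1524 bases for Lbp). Among the VPA livers the coefficient of variation in normalized counts ran from 13.0% for Hp to 35.4% for Orm3. Among the VPA_OCA livers it ran from 11.4% for Saa4 to 91.2% for Lcn2.

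**Figure D5:**
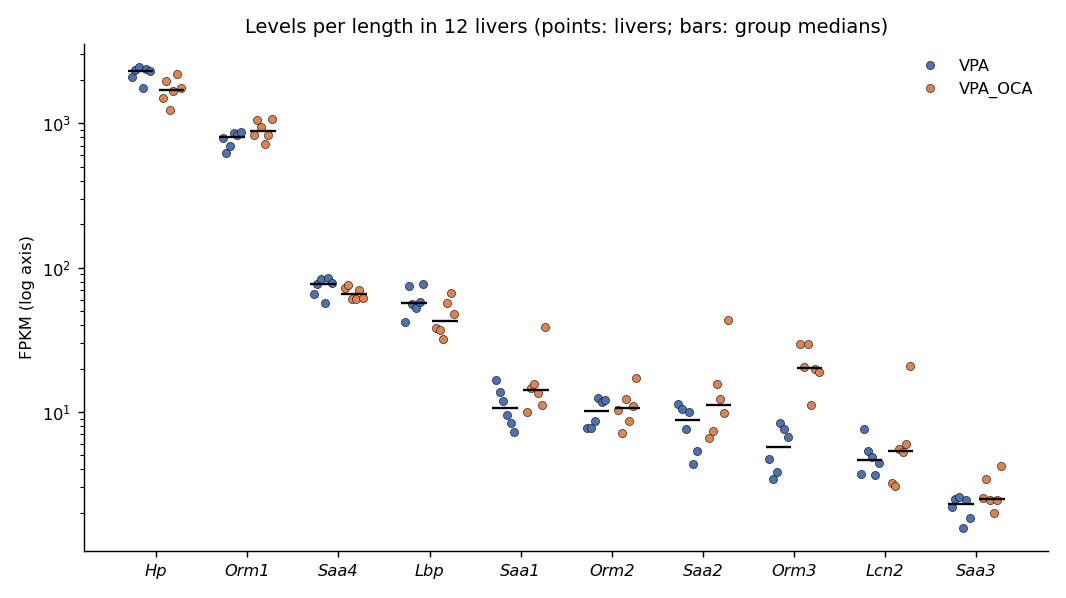
FPKM (log axis) of each acute phase gene in the 6 VPA and 6 VPA_OCA livers, in order of the median over 12 livers; points are livers and bars group medians. Levels span from 2025 for Hp to 2.46 for Saa3, and Orm3 is the gene whose points separate by group.

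Beside these 10 genes, none of those listed for the acute phase response passed, whether secreted proteins or the pathways upstream. Of 33 further positive acute phase reactants tested, 0 were called, with 3 at an unadjusted limma p under 0.05 and a median log2 fold change of -0.05. Over all genes tested, 9.55% had an unadjusted limma p under 0.05 and 0.721% were called, and the counts of each list below stand against these shares. The 3 were Il1rn, the interleukin 1 receptor antagonist, at 179 ± 37.7 normalized counts in VPA and 117 ± 30.8 in VPA_OCA, Pigr, the transporter of polymeric immunoglobulin, at 23175 ± 1737 and 28872 ± 3660, and Apcs, serum amyloid P, at 3333 ± 776 and 2565 ± 326 (adjusted p = 0.153, 0.347 and 0.419, limma). Pigr had the higher mean in VPA_OCA and the others the lower. Of 18 negative acute phase proteins, which fall in the response, 0 were called and 2 had an unadjusted limma p under 0.05 (against 9.55% of all genes), with a median log2 fold change of -0.01. Serpina6, the carrier of corticosteroids in plasma, measured 12071 ± 2178 in VPA and 8507 ± 1326 in VPA_OCA (adjusted p = 0.179, limma).

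Upstream, of 15 cytokines listed for the response, whether they drive or restrain it, 10 reached the filter and 0 of them were called. Only 1 had an unadjusted limma p under 0.05: Il10, at 3.27 ± 3.49 and 0.618 ± 0.516 normalized counts, a level of a few reads. Of 24 receptors and signal transducers 0 were called and 3 had an unadjusted limma p under 0.05 (against 9.55% of all genes). They were Il6ra, the interleukin 6 receptor, at 1378 ± 340 and 934 ± 286, Osmr, the oncostatin M receptor, at 62.9 ± 16.0 and 45.8 ± 11.4, and Traf6, an adaptor of interleukin 1 signalling, at 307 ± 17.5 and 249 ± 26.8 (adjusted p = 0.332, 0.442 and 0.217, limma). All 3 were lower in VPA_OCA by their means, and the Traf6 groups did not overlap, as in 1.44% of all genes. Of 28 transcription factors and feedback inhibitors 0 were called and 5 had an unadjusted limma p under 0.05 (against 9.55% of all genes). The smallest p was that of Ptpn11, a phosphatase of cytokine receptor signalling, with means of 1130 and 941 normalized counts and a log2 fold change of -0.27 (adjusted p = 0.197, limma). Foxa3, Hnf4a and Nr5a2, factors of hepatocyte genes, were also lower by their means (adjusted p = 0.358, 0.431 and 0.477, limma). Cish, an inhibitor of STAT signalling named here after its values were seen, was higher, at 447 ± 237 and 645 ± 184 (adjusted p = 0.509, limma).

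Of 17 binding partners and receptors of the member proteins tested 0 were called, with 2 at an unadjusted limma p under 0.05 (against 9.55% of all genes). Scarb1, the high-density lipoprotein receptor that also binds serum amyloid A, measured 3255 ± 548 in VPA and 4483 ± 581 in VPA_OCA (adjusted p = 0.115, limma). Its groups did not overlap, as in 1.44% of all genes. Cd163, the haptoglobin-haemoglobin scavenger receptor of macrophages, measured 288 ± 144 and 176 ± 53.1 (adjusted p = 0.545, limma). Glucocorticoids act on the Orm genes, and of 18 glucocorticoid-responsive genes 0 were called, 1 had an unadjusted limma p under 0.05, and 16 had a negative log2 fold change, as 50.1% of all genes did, with a median of -0.38. In 8 of the 18 the lowest of the 12 values was that of VPA_OCA replicate 6, where 9.24% of all genes were lowest. Without that liver 14 of the 18 were negative and the median was -0.20. Fkbp5, a co-chaperone of the glucocorticoid receptor, measured 2362 ± 699 and 1721 ± 576 (adjusted p = 0.510, limma).

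Of 17 FXR-induced genes tested 2 rose. Over all 19006 genes 84 were called higher, and 0.721% were called in either direction. Slc51b, a subunit of the basolateral bile acid exporter, rose from 19.1 ± 8.78 to 174 ± 44.6 normalized counts (adjusted p = 5.7e-05, limma). Akr1b7, an aldose reductase, rose from 127 ± 44.4 to 327 ± 134 (adjusted p = 0.0270, limma). The call of Akr1b7 did not hold when VPA replicate 1, 2 or 3 or VPA_OCA replicate 1 or 3 was left out (adjusted p = 0.0575, 0.0616, 0.0603, 0.0722 and 0.0525, limma). The other 15 did not pass, and the median log2 fold change of the 17 was 0.18. By the within-group pattern over 12 livers, the genes most like Orm3 of 10718 compared were Ramp1, Ropn1l, Haao, Ankra2 and Shpk, with Pearson r from 0.822 to 0.872. Those most like Hp were Smpd2, Cradd, Map1lc3a, Mettl26 and Fam25c, with r from 0.872 to 0.911. None of these 10 genes passed between the groups. Such values include any difference of numbers 1 to 3 from 4 to 6 within a group. For Orm3 that difference ran in opposite directions: numbers 4 to 6 were higher in VPA and lower in VPA_OCA.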

How the data were processed

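RNA of 12 flash-frozen livers was extracted with Trizol and made into TruSeq libraries, per the labels' protocols. Per the submitters' processing notes, the authors used edgeR and GRCm38.p5. Aligner, counter, annotation and strand setting: not given in the sources used here. The authors' table gives normalized counts, a signal per gene and library, and FPKM, per the file headers, together with a deposited GC fraction, log2 ratios, p-values and their adjusted form. Numbers written with both a decimal comma and an exponent read 1000 times too high, which was corrected. After this repair, adjusted p-values recomputed from the p-values of the 12517 genes marked present were within 0.538% of the deposited ones. Low values were whole multiples (within 0.1) of 1 step for 79.8% to 84.6%, so reads were not recovered and no count model was used. Groups and replicate numbers come from the sample titles, and 0 columns of values were left unused.

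Genes with at least 1 normalized count in at least 6 libraries were compared as log2(value + 1) by limma 3.58.1 in R 4.3.3, with an intensity trend, Benjamini-Hochberg adjustment and a threshold of 0.05, after a test on simulated data. Fold changes are on that scale, which understates changes of low genes. The limma p-values set the group difference against the spread between these libraries, with each gene's variance adjusted by those of all genes. In the main fit that spread includes the difference between the number sets. Same-numbered libraries of both groups deviated together (r = 0.150 to 0.478 over 11481 genes, each above 0.1). The number in the titles was therefore fitted as a replicate block, as an alternative only, and the labels state no pairing. For 4 of the 6 numbers a library of another number correlated more (highest r = 0.325 to 0.639 over the 6), so the likeness is not particular to the number. The 10 members and the gene lists were chosen with earlier results of these data known. Of each pathway list, genes past the threshold were eligible to be named and otherwise up to 4 with the smallest p; of marker lists the most abundant; for Orm3, Saa1, Lcn2 and Hp the 5 most alike genes with a mean of at least 50; and direct neighbours. Positions are those of the table; promoter windows are from RefSeq (GRCm38.p6) and coding sequences from GENCODE M21. Alternatives covered filter, scaling, pseudocount, trend, FPKM, replicate block, number set, and libraries left out. The test of the difference between number sets and the likeness without VPA_OCA replicate 6 were added after the data were seen.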

Additional observations from a re-analysis of the deposited data

Results flagged for a closer look

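Among 78 sets of 6 values, 1 per named gene and group, 7 had a liver set apart by a wide gap in normalized counts. The rule gives about 1 in 20 by chance for independent, normally distributed values. Genes that vary together and skewed counts do not meet this, so 7 of 78 cannot be set against that rate. Of the 7 sets, 3 were acute phase genes in VPA_OCA replicate 6. Saa1 measured 1235 normalized counts there against 494 in the next liver, Saa2 957 against 339, and Lcn2 407 against 118. Osmr was also highest in that liver within its group, at 68.5 against 45.1, and in VPA replicate 6, at 94.9 against 61.2. Il10 stood apart in VPA replicate 4, at 10.1 against 3.16 normalized counts. Gadd45b stood apart in VPA_OCA replicate 2, at 77.0 against 32.4.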

How the results depend on the processing

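Over 25 alternatives, 243 of 250 log2 fold changes of the 10 acute phase genes kept their direction and their side of the threshold. Orm3 was called in every alternative except numbers 4 to 6 alone, where 0 of the 10 genes passed and its adjusted p was 0.0657 (limma); its log2 fold change ran from 1.09 to 2.69, and leaving out each library in turn its adjusted p ran from 0.000672 to 0.00675. The sign turned for Orm2 (-0.029 in numbers 4 to 6, -0.023 without VPA_OCA replicate 6), for Saa1 and Saa2 (both -0.095 in numbers 1 to 3), for Lcn2 (-0.502 in numbers 1 to 3, -0.114 without VPA_OCA replicate 6) and, of the other named genes, for Zbtb16 (0.012 in numbers 1 to 3). With each library left out in turn, Orm2 ran from -0.023 to 0.218 and Lcn2 from -0.114 to 0.423. The cause was not tested. Of 723 values of 29 other named genes, 709 were unchanged in this sense, 8 (all of Akr1b7) lost their call and 5 gained one. The count of 137 genes called was 210 with the replicate block, 404 with a term for the number set, 223 at a threshold of 0.1 and 62 at 0.01, and 92 to 146 with each library left out. The replicate block changed no call of the 10 genes. The planned count models were not run, as the values are normalized. Genes near 50 normalized counts, such as Saa3, rest on few reads.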
